A study of Zea mays with 4 samples.

Results

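The regions described here were binding sites at which the summits of the NKD1 and NKD2 peaks lay exactly 1 bp apart. The members were chosen by summit position: they were found by taking, for each NKD1 peak, the nearest NKD2 summit on the same chromosome, and by keeping the pairs in which the NKD1 summit minus the NKD2 summit was +1 or -1. This rule kept 1511 of the 1951 NKD1 peaks, out of 67130 peaks in the 4 lists of the series. A +1 pair has its NKD1 summit 1 bp above the NKD2 summit in genome coordinates, and a -1 pair has it 1 bp below. Binding was measured by DNA affinity purification sequencing (DAP-seq), in which a transcription factor made in vitro is held on beads by a HALO tag and offered a library of sheared genomic DNA. The study made 1 library per factor for NKD1, NKD2, HB115 and NACTF49, on DNA of 14-day-old seedlings of the maize inbred B73, and the NKD libraries were read with paired reads of 150 bp. The DNA carried no nucleosomes and the protein came from a wheat germ extract, so the sites are those that each protein bound on bare DNA and occupancy in endosperm cells was not measured. There were no replicates, so no p-value is given, and intervals cover counting error only.

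NKD1 and NKD2 (NAKED ENDOSPERM1 and NAKED ENDOSPERM2) are the products of duplicate maize genes. They belong to the INDETERMINATE DOMAIN family of zinc finger transcription factors, which is found in plants. In the endosperm, the storage tissue of the cereal grain, the paralogs are known for their part in patterning the aleurone, the outermost cell layer, and mutants lacking them form extra peripheral layers with patchy aleurone identity. They are also linked to the filling of the grain with starch and storage protein. A summit here is the base at which the peak caller GEM placed the binding event. GEM weighs the distribution of reads together with short enriched words in the sequence, so that a summit reflects both. The lists gave no strand for any peak.

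Summit positions chose these pairs, so their number is a description. The share of NKD1 peaks in pairs 1 bp apart was 77.4% (95% Wilson interval 75.5 to 79.2%), made up of 791 pairs at +1 (40.5% of NKD1 peaks) and 720 pairs at -1 (36.9%). Of the 1895 NKD1 peaks with an NKD2 summit within 100 bp, 79.7% (77.9 to 81.5%) were 1 bp pairs. Just outside the rule the numbers dropped sharply. Only 9 peaks had both summits at the same base, and 18 had summits 2 bp apart, of which 11 were at +2 and 7 at -2. Pairs 1 bp apart were thus 83.9 times as many as pairs 2 bp apart. From 2 to 100 bp, the best filled distance was 9 bp, with 26 NKD1 peaks. No NKD2 summit served 2 of the 1 bp pairs, no NKD1 peak had 2 equally near NKD2 summits, and in every pair each summit was also the nearest in the other direction.

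**Figure D1:**
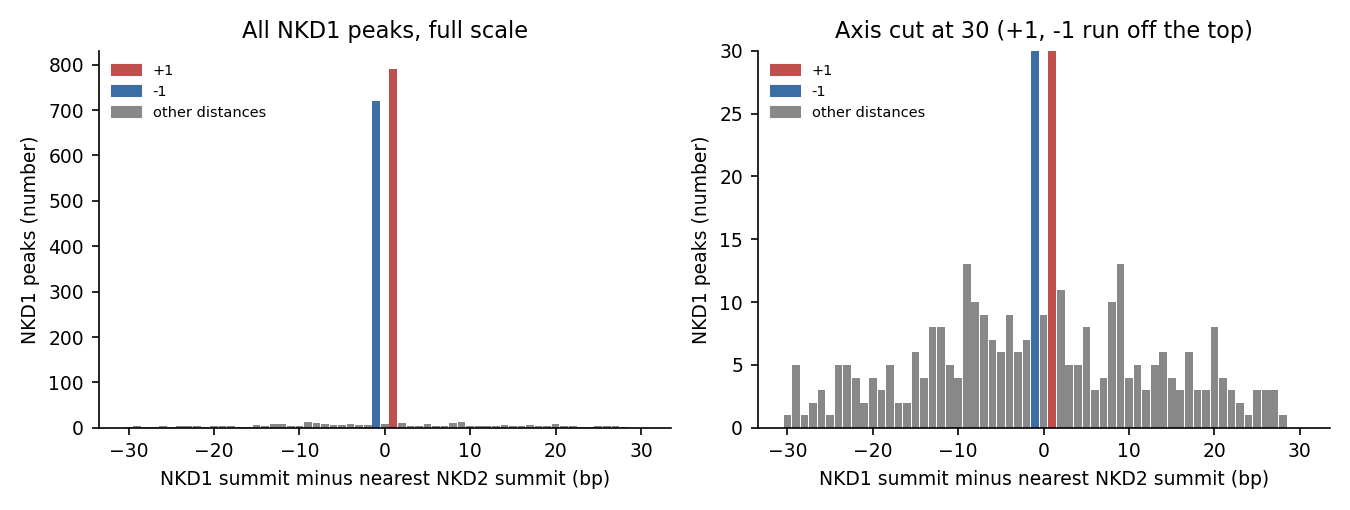
NKD1 peaks (number, vertical axis) by the NKD1 summit minus the nearest NKD2 summit (bp, horizontal axis), shown to 30 bp on each side. The left panel is on the full scale, where the bars at +1 (791 peaks) and -1 (720 peaks) stand far above all others, and the right panel is cut at 30 so that the other distances can be seen, including 9 peaks at 0.

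The 9 pairs with the same base and the 18 pairs 2 bp apart lay just outside the rule, and their strengths are given beside those of the 1 bp pairs. Strength is the signal that GEM gave the event, and it is expressed here as a percentile within each list, from weak to strong, since signals were not scaled between libraries. The pairs 1 bp apart had a median NKD1 percentile of 53.7 (order-statistic 95% interval 47.7 to 53.7) and a median NKD2 percentile of 96.9 (96.5 to 97.1). Pairs at the same base had medians of 41.1 (34.3 to 86.9) in the NKD1 list and 95.3 (89.7 to 99.4) in the NKD2 list, with an NKD1 signal of 19 to 205 and an NKD2 signal of 38 to 140. For pairs 2 bp apart, the medians were 70.4 (63.6 to 83.0) in the NKD1 list and 98.9 (95.7 to 99.7) in the NKD2 list. The interval of the pairs 2 bp apart thus lay above that of the 1 bp pairs in the NKD1 list and overlapped it in the NKD2 list, whereas that of the pairs at the same base overlapped it in both.

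Many of the strongest sites of both factors were among the pairs. The +1 pair with the highest signals was on chromosome 3 of build v4, with the NKD1 peak at 205144487 to 205144687 and a signal of 140 (rank 7 of the NKD1 list), and the NKD2 peak at 205144486 to 205144686 and a signal of 440 (rank 2 of the NKD2 list). Next among +1 pairs by NKD1 signal were 2 sites on chromosome 7. The first had an NKD1 peak at 95128094 to 95128294, with a signal of 132 in NKD1 and 331 in NKD2. The second had an NKD1 peak at 89470647 to 89470847, with a signal of 94.0 in NKD1 and 350 in NKD2. A further +1 site, on chromosome 3 with an NKD1 peak at 215424281 to 215424481, entered by its NKD2 signal of 335 and had an NKD1 signal of 93. All 4 of these +1 sites stood among the 14 highest ranks of the NKD1 list and the 6 highest ranks of the NKD2 list.

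Among the strong -1 pairs, 1 site had a lower NKD2 signal than the others, though it stood near the top of both lists. The -1 pair with the highest NKD1 signal was on chromosome 4, with an NKD1 peak at 127335527 to 127335727. Its NKD1 signal of 186 was rank 5 of the NKD1 list, whereas its NKD2 signal of 101 was rank 549 of the NKD2 list. At the -1 pair on chromosome 1, with an NKD1 peak at 27817899 to 27818099, the signals were 121 in NKD1 (rank 9) and 338.6 in NKD2 (rank 4). A -1 pair on chromosome 8, with an NKD1 peak at 21237732 to 21237932, had signals of 100.9 in NKD1 and 240 in NKD2. By NKD2 signal, the next -1 pairs were on chromosome 2, with an NKD1 peak at 25296868 to 25297068 and signals of 91.0 in NKD1 and 303.2 in NKD2, and on chromosome 3, with an NKD1 peak at 197411814 to 197412014 and signals of 64.0 in NKD1 and 289 in NKD2. Except for the site on chromosome 4, these -1 pairs ranked within the highest 44 of the NKD1 list and the highest 22 of the NKD2 list.

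At the very top of the NKD1 list the rule was met less often, though on few peaks. Of the 10 strongest NKD1 peaks, 5 were in 1 bp pairs (interval 23.7 to 76.3%), and these held the ranks from 5 to 10 with 1 exception. The other 5 had summits 11, 11, 5, 0 and 20 bp from the nearest NKD2 summit, and all had an NKD2 percentile above 99. Of the 100 strongest NKD1 peaks, 77 were in 1 bp pairs (67.8 to 84.2%), close to the 77.4% of the whole list. In the NKD2 list the 1 bp pairs held 7 of the 10 strongest peaks, 75 of the 100 strongest (65.7 to 82.5%) and 521 of the 1000 strongest (52.1%, 49.0 to 55.2%), where they held 2.66% (2.53 to 2.79%) of all 56855 peaks.

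Over the whole NKD1 list, the share in 1 bp pairs was lowest among weak peaks and then nearly level. With the list divided into 10 equal parts by signal, 62.8% of peaks (55.8 to 69.2%) in the weakest part were in 1 bp pairs, and in the next part 71.3% (64.6 to 77.2%). In the 8 stronger parts the share lay between 77.4% and 84.6%, and their intervals overlapped. The median NKD1 percentile was 53.7 for 1 bp pairs (47.7 to 53.7), against 47.7 for displaced pairs with summits 2 to 100 bp apart (41.1 to 53.7) and 12.2 for the 56 NKD1 peaks with no NKD2 summit within 100 bp (6.69 to 27.5). The interval of the displaced pairs overlapped that of the 1 bp pairs, and that of the unpaired peaks lay below both.

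In the NKD2 list the pairs were concentrated at the strong end. The strongest of 10 equal parts of the list held 1187 of the 1511 pairs (78.6%, 76.4 to 80.6%), the next part 156 and the third 68, and the weakest part held 4. Their median NKD2 signal was 70.0 (67.0 to 72.0), against 21 over the 55344 other NKD2 peaks. Displaced pairs had a median NKD2 percentile of 96.7 (95.9 to 97.2), whose interval overlapped that of 1 bp pairs (96.5 to 97.1). In both lists, then, the median strengths of 1 bp and displaced pairs could not be told apart by these intervals. A low end was also present. There were 53 pairs with an NKD2 percentile under 50 (23 at +1 and 30 at -1), and their median NKD1 percentile was 11.7 (6.69 to 18.3). The pair with the lowest NKD2 signal, a +1 pair on chromosome 3 with an NKD1 peak at 6122223 to 6122423, had a signal of 17.0 in NKD1 and 12 in NKD2. Its summits were 1 bp apart by the rule that chose it, as in every pair.

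**Figure D2:**
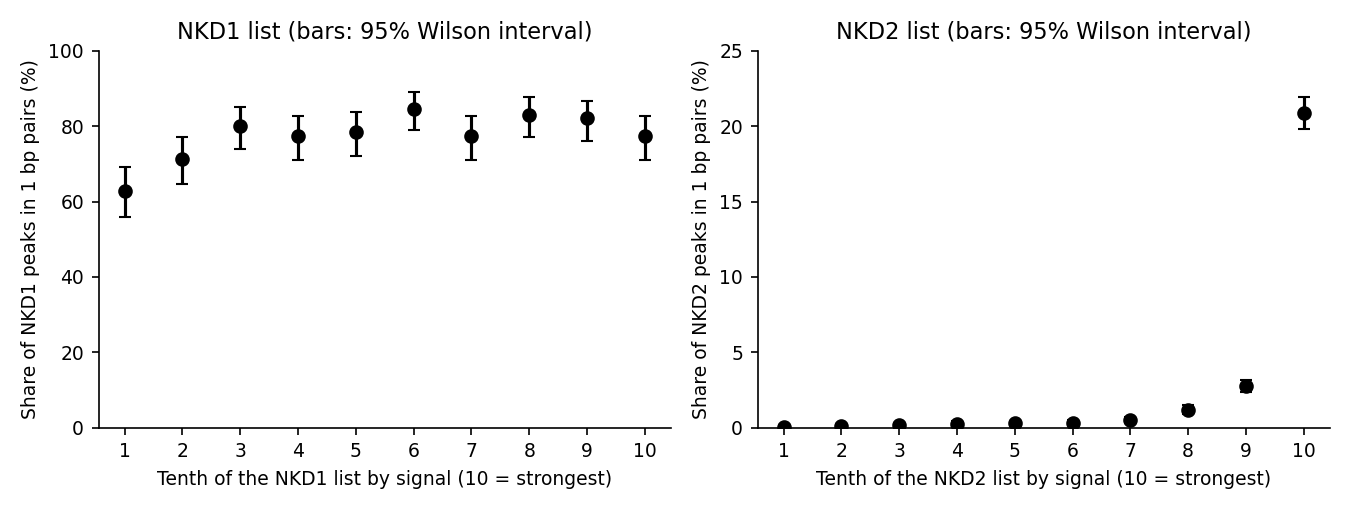
Share of peaks in 1 bp pairs (%, vertical axis) for 10 equal parts of the NKD1 list (left) and the NKD2 list (right), ordered by signal from weak to strong, with bars for the 95% Wilson interval. In the NKD1 list the share was 62.8% in the weakest part and from 77.4 to 84.6% in the 8 strongest, and in the NKD2 list it reached 20.9% in the strongest part.

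To ask whether the direction of the 1 bp step went with strength, +1 and -1 pairs were compared in both lists. The +1 pairs had a median NKD1 signal of 25 and the -1 pairs likewise of 25, both with an interval of 24 to 25. The quartiles of NKD1 signal were 21 and 30.95 in +1 pairs and 21 and 31 in -1 pairs. The median NKD2 percentile was 96.91 in +1 pairs (96.4 to 97.3) and 96.96 in -1 pairs (96.4 to 97.2), a difference of -0.051 points (interval -0.643 to 0.666). The difference in median NKD1 percentile was 0 points (-5.97 to 5.97). Both intervals included 0, and differences between the signs smaller than these intervals could not be detected.

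The strong end of each list held similar shares of both signs. An NKD2 percentile of 90 or more was reached by 622 of 791 +1 pairs (78.6%, 75.6 to 81.3%) and by 565 of 720 -1 pairs (78.5%, 75.3 to 81.3%). An NKD1 percentile of 90 or more was reached by 82 +1 pairs (10.4%, 8.43 to 12.7%) and 77 -1 pairs (10.7%, 8.64 to 13.2%). When the pairs were divided into 5 equal parts by NKD1 signal, +1 pairs made up 51.0 to 54.5% of each. By NKD2 signal they made up 47.0 to 56.3%, lowest in the middle part (47.0%, 41.5 to 52.7%) and highest in the strongest (56.3%, 50.7 to 61.8%), and these intervals overlapped. The −log10 q-value of the events, which is the caller's own measure of confidence, had a median in the NKD1 list of 2.92 in +1 pairs (2.81 to 3.0) and 2.82 in -1 pairs (2.73 to 2.92). In the NKD2 list it was 15.35 in +1 pairs (14.7 to 16.4) and 15.34 in -1 pairs (14.5 to 16.1).

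The order of strength was partly shared by the factors. Spearman's rho between the NKD1 and the NKD2 signal was 0.658 over all 1511 pairs. It was 0.649 over the 791 +1 pairs and 0.668 over the 720 -1 pairs. For the 375 displaced pairs it was 0.607. These values describe sites within 1 library per factor, which share depth and DNA and are not replicates. The agreement was closest in the end parts of a division into 5. An end part can be left in only 1 direction, so closer agreement there comes with any such division. With the pairs in 5 parts by each signal (ties kept together), 309 were in the strongest part by NKD1, of which 200 were also in the strongest part by NKD2 and 5 in its weakest. Another 309 were in the weakest part by NKD1, of which 155 were also in the weakest part by NKD2 and 2 in its strongest. Many NKD1 signals were tied, which shows as vertical stripes in the plot of ranks.

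**Figure D3:**
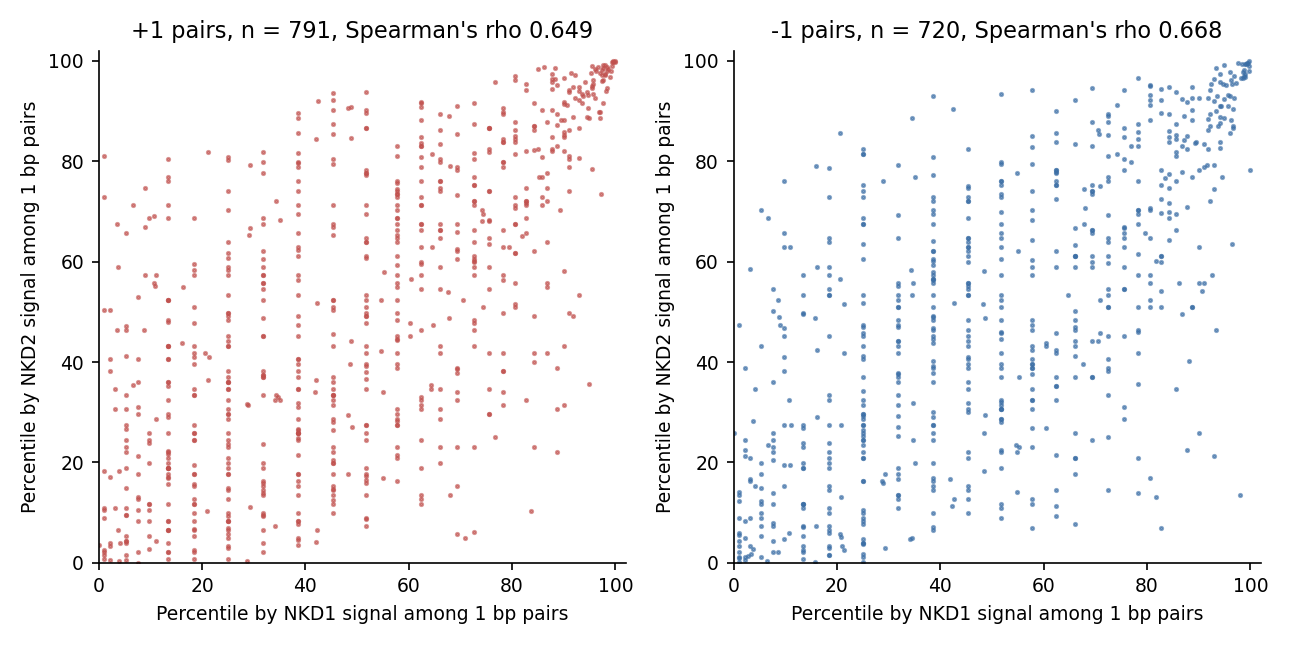
Percentile of each 1 bp pair by NKD2 signal (vertical axis) against its percentile by NKD1 signal (horizontal axis), both computed among the 1511 pairs, with 1 point per pair. The +1 pairs (left, rho 0.649) and the -1 pairs (right, rho 0.668) filled the same area, densest at the upper right.

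When each pair was ranked among the 1511 pairs, the percentile by NKD1 was within 20 points of the percentile by NKD2 in 961 pairs (63.6%, 61.1 to 66.0%). This share was 62.6% (59.2 to 65.9%) in +1 pairs and 64.7% (61.2 to 68.1%) in -1 pairs. In 29 pairs the NKD1 percentile was more than 50 points higher (14 at +1 and 15 at -1), and in 39 it was more than 50 points lower (22 at +1 and 17 at -1). The most uneven sites were picked after their values were seen. On chromosome 3, a -1 pair with an NKD1 peak at 172180867 to 172181067 had a signal of 66.0 in NKD1 (rank 40) and 35.0 in NKD2 (rank 9304), a difference of 84.5 points. In the other direction, a +1 pair on chromosome 9 with an NKD1 peak at 69916031 to 69916231 had a signal of 13.0 in NKD1 (rank 1910) and 108 in NKD2 (rank 447), a difference of -80.1 points. Another +1 pair, on chromosome 6 with an NKD1 peak at 147661360 to 147661560, had 13 in NKD1 and 93 in NKD2. These differences are in the order among the 1511 pairs, and the ranks are of lists of 1951 and 56855 peaks. Within the whole lists, the chromosome 3 pair was at percentile 97.9 by NKD1 and 83.2 by NKD2, so it was high in both. The chromosome 9 pair was at 1.20 by NKD1 and 99.2 by NKD2. The 1 bp step at all of these sites was fixed by the rule.

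Both signs occurred along every chromosome. The +1 pairs were 52.3% of the 1511 pairs (49.8 to 54.9%), an excess of 71 pairs over the -1 pairs, and the interval included 50%. By chromosome the share of +1 was lowest on chromosome 2, with 86 of 189 pairs (45.5%, 38.6 to 52.6%), and highest on chromosome 7, with 84 of 144 (58.3%, 50.2 to 66.1%). On chromosome 1 it was 47.8% (41.3 to 54.3%), and on the remaining 7 chromosomes it ran from 50.3% on chromosome 4 to 56.1% on chromosome 3. The interval of each of the 10 chromosomes included the share over all of them. The share of NKD1 peaks that were in 1 bp pairs was likewise even, from 75.0% on chromosome 9 to 79.5% on chromosome 6. It was 77.2% (68.7 to 83.9%) on chromosome 5, where the number of pairs was lowest at 88.

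Position within the chromosome gave no ordered change of sign. Over 10 equal parts of chromosome length, +1 pairs made up from 47.6% (39.7 to 55.7%) of the pairs in the sixth part to 59.3% (50.5 to 67.6%) in the second, and each interval included 52.3%. The outer 20% at each end held 343 of the +1 pairs (43.4%, 39.9 to 46.8%) and 297 of the -1 pairs (41.25%, 37.7 to 44.9%). For NKD1 peaks outside the 1 bp pairs the share was 43.4% (38.9 to 48.1%), and for the other NKD2 peaks it was 40.3% (39.8 to 40.7%). The share was similar at even and odd coordinates. With an even NKD1 summit, 52.1% of pairs were +1 (48.6 to 55.7%), and with an odd one 52.6% (49.0 to 56.1%).

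The order of signs along the chromosomes was examined next, since neighbouring sites could share a direction. The next 1 bp pair on the chromosome was a median of 0.896 Mb away. It had the same sign in 754 of 1501 cases (50.2%, 47.7 to 52.8%), where the proportions of the signs alone give 50.1%. Among the 382 pairs in which both events had a q-value of at most 0.0001, it was 55.4% of 372 cases (50.3 to 60.3%), an interval just above 50.1%. Among the 791 pairs within the strongest 50% of each list, it was 49.2% of 781 cases (45.7 to 52.7%), an interval that included 50.1%. Both limits were among the alternative settings tried. Over all pairs, a +1 pair was followed by another in 52.4% of cases (48.9 to 55.9%), and a -1 pair by another in 47.8% (44.2 to 51.5%). Going further along, the share with the same sign was 49.8% at the second pair, 49.9% at the third, and 51.1% and 50.9% at the next 2, with each interval including 50.1%. The signs formed 757 runs, of which 185 of +1 and 192 of -1 were single pairs. The longest +1 run had 11 pairs, on chromosome 2 between NKD2 summits at 40510469 and 63517036, and the longest -1 run had 8 pairs, on chromosome 7 between 170595085 and 181292145. These runs spanned 23.0 Mb and 10.7 Mb, so that they joined distant sites.

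Close neighbours were few. Within 1 kb there were 13 neighbouring pairs, and 10 had the same sign (76.9%, 49.7 to 91.8%). From 1 to 100 kb the share was 61 of 112 (54.5%, 45.2 to 63.4%), from 100 kb to 1 Mb it was 51.9% of 674 (48.2 to 55.7%), and over 1 Mb it was 47.4% of 702 (43.8 to 51.1%). All of these intervals included 50.1%, and with 13 neighbours the first is too wide to place the share.

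**Figure D4:**
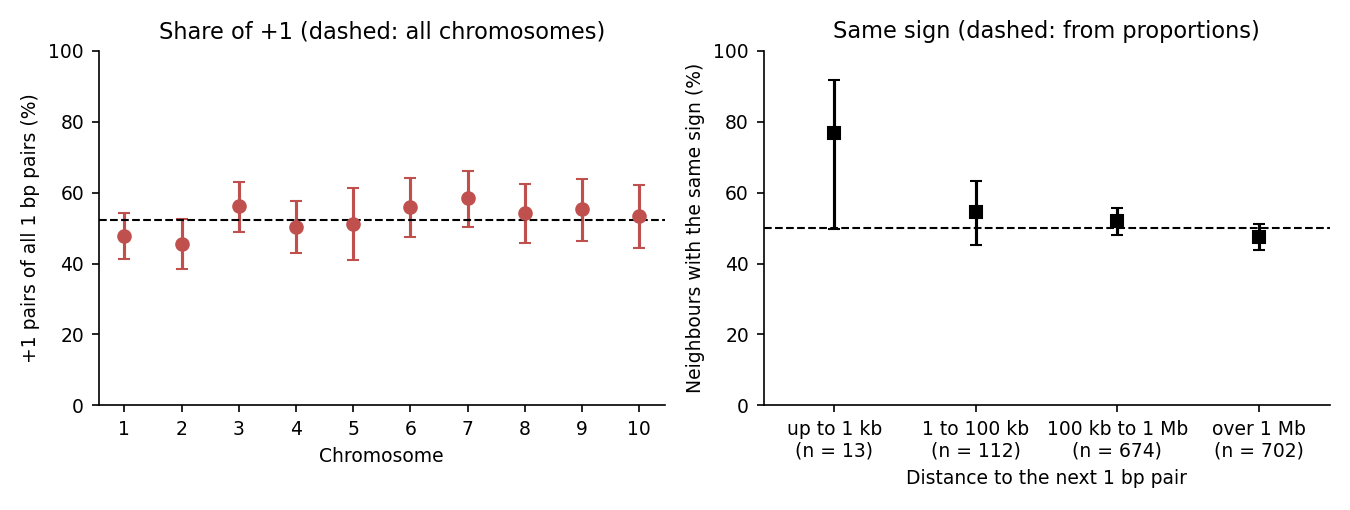
Left, the share of +1 among 1 bp pairs (%) on each chromosome, with the dashed line at 52.3% for all chromosomes. Right, the share of neighbouring 1 bp pairs with the same sign (%) by the distance between them, with the dashed line at the 50.1% given by the proportions of the signs; bars are 95% Wilson intervals, and the interval is widest, 49.7 to 91.8%, for the 13 neighbours within 1 kb.

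The closest neighbours lay at an exact distance. At 3 places the NKD2 summits of 2 neighbouring pairs were 78 bp apart, and the NKD1 summits were also 78 bp apart, since both pairs had the same sign. On chromosome 5 the NKD2 summits were at 83839396 and 83839474, both pairs were -1, and the signals of the lower and upper pair were 44.3 and 29.7 in NKD1 and 213.1 and 118.9 in NKD2. On chromosome 1 the NKD2 summits were at 290146992 and 290147070, both pairs were -1, and the signals were 23.7 and 20.3 in NKD1 and 137.1 and 75.9 in NKD2. On chromosome 2 the NKD2 summits were at 193567911 and 193567989, both pairs were +1, and the signals were 21.9 and 45.9 in NKD1 and 102.7 and 150.3 in NKD2. The 3 neighbours of opposite sign, at 136 bp on chromosome 1, 296 bp on chromosome 2 and 735 bp on chromosome 10, all had the -1 pair below the +1 pair, so their NKD1 summits were 138, 298 and 737 bp apart.

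Second NKD2 summits without the rule of a 1 bp step gave a larger set around the pairs. Of the 1511 pairs, 77 had another NKD2 summit within 100 bp (5.10%, 4.10 to 6.32%), and 266 had one within 1 kb (17.6%, 15.8 to 19.6%). Among other NKD2 peaks these shares were 1.30% (1.21 to 1.40%) and 12.3% (12.05 to 12.6%), and among displaced pairs they were 2.40% (1.27 to 4.50%) and 17.6% (14.1 to 21.8%). The 1 bp pairs were much stronger NKD2 peaks than the rest of that list, and the part of strength in this comparison was not tested. Within 1 kb, a second summit was found for 130 of the +1 pairs (16.4%, 14.0 to 19.2%) and 136 of the -1 pairs (18.9%, 16.2 to 21.9%). Pairs with a second NKD2 summit within 100 bp had a median NKD1 signal of 28 (23.7 to 32) and a median NKD2 signal of 65.0 (47.9 to 75.9). Those with none had 25 (24 to 25) in NKD1 and 70.75 (67.4 to 72.4) in NKD2.

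The sign of a pair gives its summits a direction, from NKD2 to NKD1, and the second summits were placed on that axis. Of the 300 second summits within 1 kb, 139 lay on the side of the NKD1 summit (46.3%, 40.8 to 52.0%), and of the 82 within 100 bp, 40 did (48.8%, 38.3 to 59.4%). Over all distances they fell on both sides about equally. Some single distances did not. A second summit at 78 bp was seen 24 times, on 9 chromosomes, with 10 on the NKD1 side and 14 on the other, and 6 of the 24 were the neighbouring 1 bp pairs above, counted from each end. A second summit at 75 bp was seen 9 times, on 6 chromosomes, and all 9 were on the side away from the NKD1 summit. At 203 bp there were 8, on 6 chromosomes, and at 122 bp there were 4, on 3 chromosomes. All 12 of these were away from the NKD1 summit. At 74 bp there were 4, on 3 chromosomes, and all 4 were on the NKD1 side.

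Lying on 1 side of this axis fixes the placement in coordinates for each sign, so the placements given here restate the counts above. At 75 bp, the 2 pairs at +1 had the second summit below them in coordinates and the 7 pairs at -1 had it above them. At 203 bp, the 5 pairs at +1 had it below and the 3 pairs at -1 above. At 74 bp the placement was the reverse, above the 2 pairs at +1 and below the 2 pairs at -1. At 122 bp all 4 pairs were +1, with the second summit below them. These 4 distances were picked after the counts were seen, because they were seen 4 times or more and lay on 1 side, and sites at 1 distance may be copies of 1 repeated sequence, which was not examined here. Of the 8 distances seen 4 times or more, 4 were one-sided, and those at 78, 156, 67 and 296 bp were not. Of the 156 bp summits 4 lay on the NKD1 side and 3 on the other, of the 67 bp summits 3 and 2, and of the 296 bp summits 1 and 3. Of the 40 distances seen at least 2 times, 24 were one-sided, and of the 13 seen at least 3 times, 6 were. Most of the 40 were thus seen only 2 times, which is too few to tell a side. Neighbouring 1 bp pairs were counted from each end, which ties the sides of those 2 counts to each other. In the whole NKD2 list the median number of summit pairs at any 1 distance up to 1 kb was 3. The most frequent distance in that list was 152 bp, with 80 summit pairs, and it is not among the distances above. There were 33 at 78 bp, 23 at 75 bp, 35 at 203 bp, 37 at 122 bp and 7 at 74 bp. These counts include the second summits around the 1 bp pairs, such as 9 at 75 bp, 8 at 203 bp and 4 at 122 bp. At these 3 distances most summit pairs thus lay elsewhere in the list. At 74 bp, however, 4 of the 7 lay around 1 bp pairs, and at 78 bp most of the 33 did.

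The signals of close events were linked to each other. Among 1 bp pairs with a single second NKD2 summit, 116 of 131 with that summit within 250 bp had an NKD2 signal that was not a whole number, against 8 of 66 with it more than 500 bp away. In 104 of the 116 (89.7%, 82.8 to 94.0%) the signals of both summits added up to a whole number within 0.05, against 1 of the 8. The strengths of summits this close, close neighbours included, are therefore not separate measurements. The limits of 250 and 500 bp were picked after these values were seen. Neighbouring 1 bp pairs were entered from each end with the same sum. The cases are thus not all separate, and the interval does not allow for this.

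The strength of the second summit differed between the distances. At 203 bp it was weak, with an NKD2 signal of 11 to 17.6 (median 13.9), against 13.8 to 90.4 (median 72.75) for the NKD2 peaks of the pairs, and it was the stronger peak in 1 of 8 cases. At 75 bp the second summit had a signal of 20.8 to 83.4 (median 45.0) and the pairs had 13.8 to 57.1 (median 43.2), and the second was stronger in 5 of 9 cases. At 78 bp it had 23.8 to 213.1 (median 72.7) and the pairs had 28.2 to 213.1 (median 100.5). Distances of 75 and 203 bp occurred together around the same pair at 2 places. At the -1 pair on chromosome 8 with an NKD2 summit at 74217796 and a signal of 13.8, further NKD2 summits lay at 74217871 (75 bp, signal 47.9) and 74217999 (203 bp, signal 16.9). At the +1 pair on chromosome 1 with an NKD2 summit at 128519137 and a signal of 45.0, they lay at 128519062 (75 bp, signal 23.7) and 128518934 (203 bp, signal 15.3). Both distances were one-sided, so the positions around these 2 pairs had to be mirror images. Their signals were not, since the 75 bp summit was stronger than the pair on chromosome 8 and weaker than the pair on chromosome 1.

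**Figure D5:**
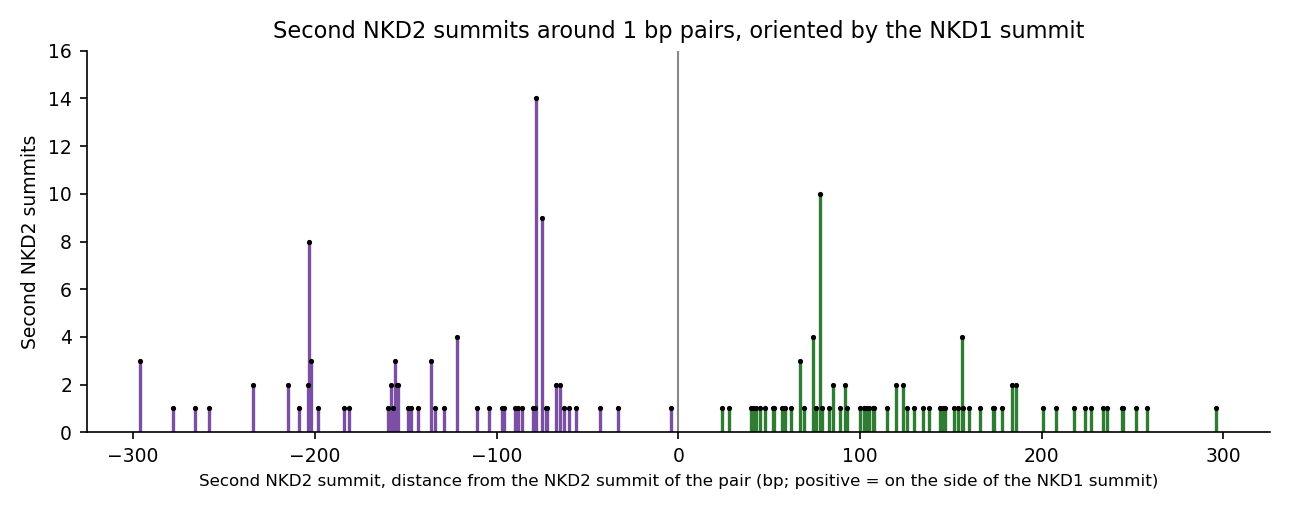
Number of second NKD2 summits (vertical axis) by their distance from the NKD2 summit of a 1 bp pair (bp, horizontal axis), where positive distances are on the side of the NKD1 summit, shown to 300 bp. The lines at 78 bp stand on both sides (10 on the NKD1 side and 14 on the other), whereas the 9 at 75 bp and the 8 at 203 bp stand only on the side away from NKD1 and the 4 at 74 bp only on its side.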

How the data were processed

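The deposited lists for NKD1 and NKD2 each give intervals of 201 bp centred on a summit. Per the methods, the authors trimmed reads with Trimmomatic, mapped them to build v4 of B73 with Bowtie2, filtered by mapping quality with SAMtools and called events per sample with GEM, then subtracted events of a HALO-GST control and listed problem regions. The submitters' processing notes name B73 RefGen_v3, whereas the methods and the list names give v4. Coordinates are printed 1-based, so that a summit stands 1 bp above the start plus the summit offset given in the lists. The deposited signal is GEM's strength of an event, not scaled between libraries. The deposited −log10 q-value is the caller's. Depth is unknown here.

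Summits were paired with Python 3.11.15 (pandas 2.3.3, scipy 1.17.1). Shares carry 95% Wilson intervals and medians order-statistic intervals. The interval of a difference of medians combines those of both medians in quadrature. The pairing code was tested on simulated lists. Alternatives changed the strength limit, the q-value limit, the ranking, the offset, the chromosomes and the neighbour distance. Leaving out pairs with a second summit within 1 kb was chosen after seeing the data, as were the limits for whole-number sums. The pairs, distances and comparisons were chosen with earlier results of these data known. Named pairs are, for each sign, the top 3 by NKD1 signal and the top 3 by NKD2 signal, the closest neighbours and the ends of the longest runs. All other named pairs, such as those with the lowest signal, the most uneven ranks or second summits, were picked after their values were seen. HB115 and NACTF49 were only counted. Sequence, motif strand and genes of build v4 were not used here.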

Additional observations from a re-analysis of the deposited data

How the results depend on the processing

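There were 42 alternatives to 7 results, of which 36 stayed within the 95% interval of the value reported and 6 lay outside it. Taking reciprocal nearest summits only gave the same 1511 pairs, and so the same values for all 7 results. These are counted among the 36, although this setting could change little at a distance of 1 bp. Percentiles ranked within shortened lists are not on the scale of the full lists, so the count of 36 is no measure of stability. Keeping only peaks in the upper 50% by signal, the share of NKD1 peaks in 1 bp pairs was 81.0% and the median NKD1 percentile, ranked within the shorter list, was 47.0. In this setting the share of neighbours with the same sign was 49.2% (45.7 to 52.7%) over 781 neighbours, within the interval of the value reported. Where both events had to reach a q-value of 0.0001, the share was 80.6%, the median NKD2 percentile was 97.7 and the share of neighbours with the same sign was 55.4% (50.3 to 60.3%) over 372 neighbours, an interval above the 50.1% that the proportions of all signs give. Limiting neighbours to 100 kb gave 56.8% with the same sign (48.0 to 65.2%) over 125 neighbours. The cause of these moves was not tested. The share of +1 ran from 50.5% with the q-value limit to 53.1% without pairs that had a second summit within 1 kb, an alternative chosen after seeing the data. In that last setting the interval, 50.3 to 55.8%, lay just above 50%. No paired analysis was possible because NKD1 and NKD2 have a single library each. The comparison of sign with the strand of the motif core was not run, since no sequence of build v4 was used here. The depth of each library is unknown, which limits every strength given.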
